A study of Mus musculus with 6 samples.

Results

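Metalloproteases that cut matrix and cell-surface proteins outside cells, and the inhibitors that hold them in check, were followed as 65 genes in the mouse hippocampus. They are the protein-coding genes of the deposited comparison table whose symbols begin with Mmp, Adam, Adamts or Timp and a number, 65 of 30821 genes in that table. They comprise 17 matrix metalloproteases (MMPs), 25 ADAMs, 19 ADAMTS proteases and 4 tissue inhibitors of metalloproteases (TIMPs). A further 13 protein-coding genes with such names in the GENCODE M21 annotation had 0 counts in every library. The study injected adeno-associated virus (AAV) into CA1 of both hemispheres of male C57BL/6J mice aged 8 weeks. In 3 mice (TAF15 OE) the virus carried TAF15, an RNA-binding protein of the FET family, behind CaMKIIα, a promoter used to drive expression in excitatory neurons. The other 3 mice (Control) received control AAV, whose label names no promoter. Whole hippocampus was taken 31 days later and sequenced as bulk RNA, 1 mouse per library, all mice otherwise of 1 strain, sex and age.

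MMPs and ADAMTS proteases degrade collagens, laminins and the proteoglycans that surround neurons, whereas most ADAMs sit in the cell membrane and shed the outer part of receptors, ligands and the amyloid precursor protein. Catalysis rests on a zinc ion held by 3 histidines, with a glutamate next to the first of them, and TIMPs block the enzymes by reaching into that site. In the hippocampus these enzymes are known for roles in synaptic plasticity, perineuronal net turnover and inflammation, and several ADAMs have lost the zinc site and act as receptors or adhesion proteins.

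The codons of the zinc site are printed for the members whose results are described most fully, because they separate working proteases from the ADAMs without one. Each line holds 33 bases of coding sequence, 5′ to 3′, read from GENCODE M21 transcripts on GRCm38. Capitals mark the histidine codons (CAT or CAC) of the site and the glutamate codon (GAA or GAG) after the first of them. The positions are chr8:92839279-92839311 (+) for Mmp2, chr5:129596597-129596629 (+) for Mmp17, chr2:155807427-155807459 (+) for Mmp24 and chr12:21336732-21336764 (-) for Adam17. For the ADAMTS genes the site spans an exon junction, at chr1:171253210-171253915 (+) for Adamts4 and chr7:66968898-67002473 (+) for Adamts17. For the last 3 genes the matching stretch was found by aligning the translated proteins, at chr11:102773613-102773645 (+) for Adam11, chr5:8143064-8143096 (-) for Adam22 and chr1:63547763-63547795 (+) for Adam23.
Mmp2: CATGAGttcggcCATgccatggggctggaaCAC
Mmp17: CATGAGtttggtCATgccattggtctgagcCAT
Mmp24: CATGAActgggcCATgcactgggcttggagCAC
Adam17: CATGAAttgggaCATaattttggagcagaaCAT
Adamts4: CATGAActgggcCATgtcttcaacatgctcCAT
Adamts17: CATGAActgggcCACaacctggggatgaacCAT
Adam11: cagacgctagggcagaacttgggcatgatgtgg
Adam22: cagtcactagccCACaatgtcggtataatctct
Adam23: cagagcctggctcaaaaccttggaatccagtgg
Adam11 and Adam23 hold 0 of the 3 histidine codons in this stretch and Adam22 holds 1. The 6 proteases above them hold all 3 and the glutamate codon.

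The libraries held 14965464 to 16067000 counts. At that depth 3 counts, the limit that a count of 0 allows in 1 library, correspond to 0.182 to 0.204 CPM (counts scaled to library size). Taf15 checked the labels: it stood at 61.7, 63.5 and 53.0 CPM in Control and at 249, 241 and 272 CPM in TAF15 OE, 4.27-fold higher (log2 2.095 ± 0.086 SE, edgeR quasi-likelihood test, Benjamini-Hochberg adjusted p = 4.971e-07). Control 1 and TAF15 OE 1 stood apart from the other libraries in Ttr, the main transcript of choroid plexus. Ttr was at 89.3 CPM in Control 1 and 1356 CPM in TAF15 OE 1 against 3839 to 4477 CPM in the other libraries. Cd74, a gene of antigen-presenting cells, was at 562 CPM in TAF15 OE 1 against 59.2 and 118 CPM in the other TAF15 OE mice and 14.1 to 16.6 CPM in Control.

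In TAF15 OE, 7 members rose (Mmp2, Mmp11, Mmp19, Mmp25, Adam17, Adamts4 and Timp1) and 4 fell (Mmp17, Mmp24, Adam11 and Adamts17), of 46 that passed the filter on low counts. A change is called here at an adjusted p below 0.05 over all genes tested. The 11 called members are 23.9% of those tested, beside 15.3% of the 16758 genes tested. Risers made up 15.2% of the tested members against 9.32% of all genes, and fallers 8.7% against 5.95%. The 3 TAF15 OE values lay above the 3 Control values for 14 members and below them for 6. Together these are 43.5% of the tested members, beside 34.6% of all genes (19.1% higher, 15.5% lower). The median log2 fold change of the tested members was 0.11, with 32 positive and 14 negative values from -0.69 to 1.72, against a median of 0.026 over all genes. Among MMPs 4 rose and 2 fell of 12 tested. Among ADAMs 1 rose and 1 fell of 13, among ADAMTS genes 1 rose and 1 fell of 17, and of 4 TIMPs 1 rose. Of all genes called, 61% were higher in TAF15 OE with the trimmed mean scaling used here and 72% with scaling on total counts. That share was 98% when libraries were scaled on presynaptic genes, a choice that put the median log2 value over all genes at 0.31. The filter removed 19 members. Mmp25, Adamts18 and Adam33 were kept through their TAF15 OE libraries, since not all of their Control libraries reached the cutoff of 0.656 CPM. Of the 41 members that reached it in every library, 6 rose and 4 fell.

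**Figure D1:**
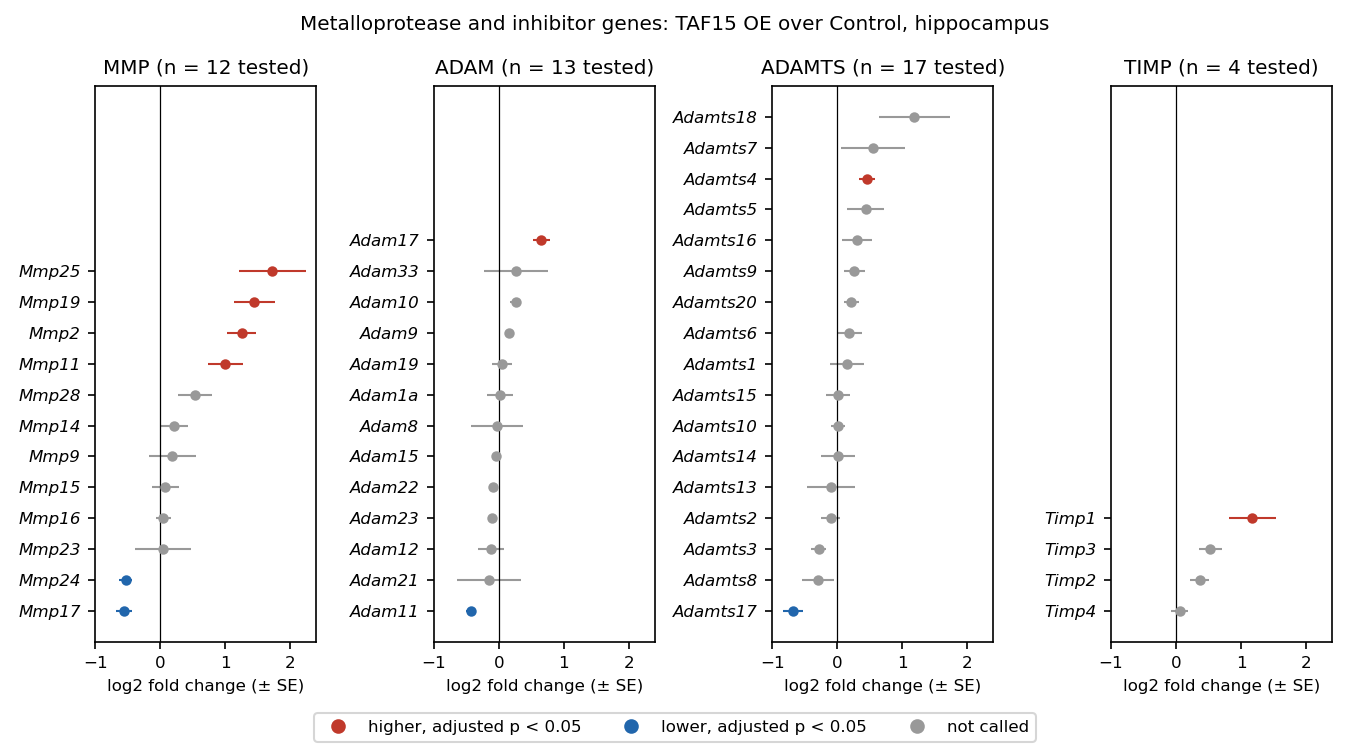
Log2 fold change of TAF15 OE over Control (x axis, ± SE, n = 3 mice per group) for each of the 46 tested members, 1 panel per family; colours mark members called higher, called lower or not called. The 7 called higher run from 0.46 (Adamts4) to 1.72 (Mmp25), and the 4 called lower from -0.69 (Adamts17) to -0.43 (Adam11).

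The gelatinase Mmp2 and 2 further secreted MMPs were higher in TAF15 OE. Mmp2, which degrades denatured collagen and basement membrane collagen (chr8:92827291-92853420 on GRCm38, plus strand), stood at 4.07, 5.50 and 7.66 CPM in Control and at 15.7, 14.1 and 11.4 CPM in TAF15 OE. The lowest TAF15 OE mouse lay above the highest Control mouse. The mean rose from 5.75 ± 1.81 to 13.7 ± 2.21 CPM (SD, n = 3), 2.38-fold (log2 1.25 ± 0.22 SE, adjusted p = 0.00493). Its call held with each library left out. The other gelatinase, Mmp9, a protease released by neurons and neutrophils and studied for its part in synaptic plasticity, was at 1.29, 1.66 and 1.53 CPM in Control and 1.09, 2.56 and 1.46 CPM in TAF15 OE. The groups overlapped, and the log2 difference was 0.18 ± 0.36 SE (adjusted p = 0.788).

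Mmp19, a secreted protease of basement membrane proteins (chr10:128790910-128800824, plus strand), was at 0.815, 0.928 and 1.07 CPM in Control and at 3.07, 1.97 and 2.67 CPM in TAF15 OE. The groups were separate, at 12 to 16 counts per Control library and 30 to 48 per TAF15 OE library. The rise was 2.73-fold (log2 1.45 ± 0.31 SE, adjusted p = 0.0110). Without both Control 1 and TAF15 OE 1 its log2 value was 1.19 and its adjusted p was 0.0527. Of the 3533 exonic bases of Mmp19, 789 are shared with Tmem198b on the other strand, which had a log2 value of 0.29 and was not called. Mmp11, or stromelysin 3, which is activated by furin inside the cell (chr10:75923222-75936496, minus strand), was at 1.15, 1.72 and 1.40 CPM in Control and 2.75, 2.70 and 3.16 CPM in TAF15 OE. The rise was 2.00-fold (log2 1.00 ± 0.27 SE, adjusted p = 0.0306), with the groups separate. The difference no longer passed without Control 1 (adjusted p = 0.1018), Control 3 (0.0813), TAF15 OE 2 (0.0759) or TAF15 OE 3 (0.1017).

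The membrane-anchored MMPs moved in both directions: Mmp17 and Mmp24 fell, Mmp25 rose, and Mmp14, Mmp15 and Mmp16 were not called. Mmp17 (MT4-MMP, held by a lipid anchor, chr5:129584169-129611099, plus strand) was at 380, 319 and 314 CPM in Control and 275, 213 and 201 CPM in TAF15 OE. All TAF15 OE mice lay below all Control mice. The level was 1.47-fold lower (log2 -0.56 ± 0.13 SE, adjusted p = 0.0228). That difference no longer passed with 1 library left out, whether Control 1 (adjusted p = 0.0579), Control 2 (0.0650), TAF15 OE 2 (0.0815) or TAF15 OE 3 (0.0596). Mmp24 (MT5-MMP, a transmembrane enzyme found mainly in the nervous system and able to cut N-cadherin, chr2:155775342-155818366, plus strand) was at 61.6, 52.0 and 52.1 CPM in Control and 39.4, 41.0 and 34.4 CPM in TAF15 OE. It was 1.44-fold lower (log2 -0.53 ± 0.098 SE, adjusted p = 0.00552), and its call held with each library left out. Of its 4683 exonic bases 637 are shared with BC029722 on the other strand, which had a log2 value of -0.11 and was not called.

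A set of pyramidal neuron markers moved with Mmp17 and Mmp24. Of 10 such markers 8 fell, and their summed level was 9314 to 11090 CPM in Control and 6398 to 7754 CPM in TAF15 OE. With scaling on presynaptic genes the log2 values were -0.28 for Mmp17 (adjusted p = 0.0760) and -0.25 for Mmp24 (0.0547), where the median of all genes was 0.31. The part of the markers in the result was not tested, and in bulk tissue fewer cells of a type and less RNA per cell cannot be told apart.

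Mmp25 (MT6-MMP, or leukolysin, held by a lipid anchor and known from neutrophils, chr17:23629458-23645269, minus strand) rested on few reads, 3, 8 and 6 counts in Control and 32, 14 and 14 counts in TAF15 OE. These are 0.204, 0.531 and 0.400 CPM against 2.04, 0.920 and 0.850 CPM. The groups did not overlap, and TAF15 OE 1 was the highest library. No Control library reached the cutoff of the filter, so Mmp25 was tested only through the group where it was high. The rise was 3.30-fold (log2 1.72 ± 0.51 SE, adjusted p = 0.0433). Without TAF15 OE 1 its log2 value was 1.18 and its adjusted p 0.166. The call was also lost without Control 1 (0.1451), Control 2 (0.0775), Control 3 (0.1104) or TAF15 OE 2 (0.0720). The summed level of 9 neutrophil markers was 17.2 to 18.4 CPM in Control and 52.8, 27.3 and 29.7 CPM in TAF15 OE 1, 2 and 3. Of that list 1 gene passed the filter, and it rose (log2 1.12), while the chemokine receptor Cxcr2 was at 0 in every TAF15 OE library. The part of these markers in the result was not tested. Mmp14 (MT1-MMP, which activates pro-MMP2 at the cell surface) was at 24.9, 20.3 and 30.0 CPM in Control and 36.9, 21.6 and 29.0 CPM in TAF15 OE. The groups overlapped (log2 0.22 ± 0.22 SE, adjusted p = 0.566), and without TAF15 OE 1 the log2 value was -0.011.

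**Figure D2:**
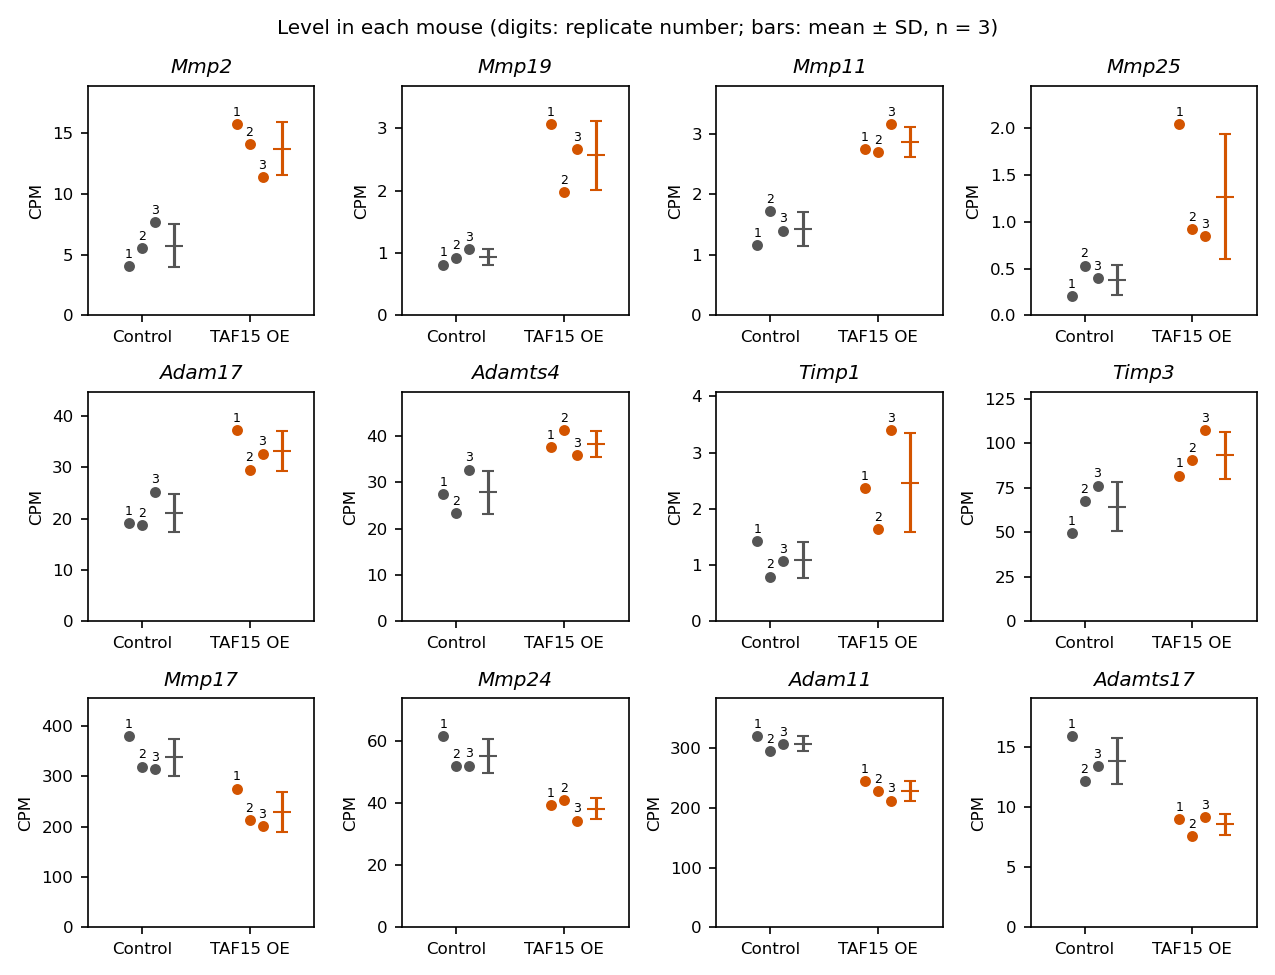
Level in CPM (y axis, from 0) of 12 members in each mouse; points carry the replicate number and bars show the mean ± SD of 3 mice per group. The panels show the 11 called members and Timp3, which was not called (49.6 to 76.2 CPM in Control, 81.9 to 107 CPM in TAF15 OE). The groups do not overlap in any of the 12 panels, which were picked largely by the calls. Groups were separate for 43.5% of all tested members and 34.6% of all genes tested.

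Adam17 rose among the sheddases. Adam17 (TACE, which releases TNF, TNF receptors and many other surface proteins, chr12:21323509-21373632, minus strand) was at 19.1, 18.8 and 25.3 CPM in Control and at 37.2, 29.5 and 32.7 CPM in TAF15 OE. Every TAF15 OE mouse was above every Control mouse. The rise was 1.57-fold (log2 0.65 ± 0.13 SE, adjusted p = 0.00907), and the call held with each library left out (largest adjusted p 0.0460). Adam10, the main α-secretase of the amyloid precursor protein and the first cutter of Notch, was at 91.4, 88.0 and 91.9 CPM in Control and 120, 97.4 and 107 CPM in TAF15 OE. Its groups were separate as well, but the difference missed the threshold (log2 0.26 ± 0.082 SE, adjusted p = 0.0535). It passed in 5 of 18 alternatives, among them the replicate number as a block (0.0239) and scaling on total counts (0.0220). It did not pass by DESeq2 (0.108), limma-voom (0.0664) or with any single library left out (up to 0.219). The other 8 tested ADAMs with a zinc site were not called, with log2 values from -0.15 (Adam21) to 0.26 (Adam33).

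Of the 3 tested ADAMs without the zinc site, Adam11 fell and Adam22 and Adam23 were not called. These membrane proteins bind LGI proteins, and Adam22 with its ligand Lgi1 is known for anchoring AMPA receptors and potassium channels at synapses and axons. Adam11 (chr11:102761439-102780262, plus strand) was at 320, 295 and 307 CPM in Control and 245, 228 and 212 CPM in TAF15 OE. The groups were separate, and the level was 1.35-fold lower (log2 -0.43 ± 0.072 SE, adjusted p = 0.00363). Its call held with each library left out. With scaling on presynaptic genes the log2 value was -0.15 (adjusted p = 0.0862). Adam22 was at 214, 194 and 207 CPM in Control and 193, 194 and 191 CPM in TAF15 OE, a log2 value of -0.09 ± 0.065 SE (adjusted p = 0.399). Adam23 was at 130, 118 and 128 CPM in Control and 113, 113 and 124 CPM in TAF15 OE, a log2 value of -0.10 ± 0.071 SE (adjusted p = 0.397). With scaling on presynaptic genes both values turned positive, 0.191 for Adam22 and 0.182 for Adam23. Whether Adam11 differed from Adam22 and Adam23 in its change was not tested.

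Among the LGI ligands of these receptors 1 rose and 1 fell of 4. Lgi1, secreted by neurons and mutated in a familial temporal lobe epilepsy, fell from 136 ± 9.54 to 100.04 ± 3.75 CPM (SD, n = 3), a log2 value of -0.45 ± 0.073 SE (adjusted p = 0.00313, 0.0821 with scaling on presynaptic genes). Lgi4, a ligand of Adam22 made by glia, rose from 18.1 ± 0.860 to 27.7 ± 2.80 CPM (log2 0.61 ± 0.11 SE, adjusted p = 0.00412).

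Of the 17 ADAMTS genes tested, 1 rose and 1 fell. Adamts4, which cuts the lecticans aggrecan, brevican and versican (chr1:171250421-171260637, plus strand), was at 27.4, 23.3 and 32.6 CPM in Control and at 37.6, 41.2 and 35.8 CPM in TAF15 OE. The lowest TAF15 OE value lay above the highest Control value. The rise was 1.37-fold (log2 0.46 ± 0.12 SE, adjusted p = 0.0269), and the call was lost without Control 1 (0.0837), Control 2 (0.0929) or TAF15 OE 2 (0.1271). Adamts4 is a gene that mature oligodendrocytes also express. Of 10 oligodendrocyte markers 8 rose, with a summed level of 5238 to 5656 CPM in Control and 6440 to 8350 CPM in TAF15 OE, and their part in the result was not tested. The related lectican proteases Adamts1 and Adamts5 were not called. Adamts1 was at 22.1, 30.3 and 39.0 CPM in Control and 28.0, 29.8 and 43.8 CPM in TAF15 OE (log2 0.15 ± 0.26 SE, adjusted p = 0.761). Its groups overlapped. Adamts5 was at 1.36, 1.72 and 1.73 CPM in Control and 1.79, 2.43 and 2.31 CPM in TAF15 OE, with separate groups (log2 0.44 ± 0.28 SE, adjusted p = 0.344).

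Adamts17, a secreted protease whose human gene is mutated in a Weill-Marchesani-like syndrome of short stature and lens defects (chr7:66839735-67153171, plus strand), was at 15.9, 12.1 and 13.4 CPM in Control and 9.01, 7.56 and 9.17 CPM in TAF15 OE. The groups were separate, and the level was 1.61-fold lower (log2 -0.69 ± 0.15 SE, adjusted p = 0.0118). Without Control 1 the adjusted p was 0.0513. With scaling on presynaptic genes it was still called (log2 -0.40, adjusted p = 0.0452). None of the 3 procollagen proteases (Adamts2, Adamts3 and Adamts14) was called. The remaining tested ADAMTS genes were not called either, with log2 values from -0.30 (Adamts8) to 1.19 (Adamts18, SE 0.54, adjusted p = 0.181).

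The 4 inhibitors all had positive log2 values, and Timp1 alone was called. Timp1, an inducible inhibitor raised in reactive astrocytes after injury (chrX:20870166-20874735, plus strand), was at 1.43, 0.796 and 1.07 CPM in Control and 2.36, 1.64 and 3.40 CPM in TAF15 OE. The groups were separate at 12 to 21 counts per Control library and 25 to 56 counts per TAF15 OE library. The rise was 2.25-fold (log2 1.17 ± 0.36 SE, adjusted p = 0.0485). The call was lost without Control 1 (0.0619), Control 2 (0.1584), Control 3 (0.1231), TAF15 OE 1 (0.0666) or TAF15 OE 3 (0.1963, where the log2 value was 0.86). Of 10 astrocyte markers 8 rose, with a summed level of 5052 to 6265 CPM in Control and 8842 to 9701 CPM in TAF15 OE, and their part in the result was not tested.

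Timp2, an abundant inhibitor that also takes part with Mmp14 in activating pro-MMP2 (chr11:118301069-118355740, minus strand), was at 240, 354 and 341 CPM in Control and 371, 405 and 432 CPM in TAF15 OE. The groups did not overlap, and Control 1 was the lowest library. The log2 difference was 0.37 ± 0.15 SE and was not called (adjusted p = 0.141; DESeq2 gave 0.0339). Timp3, which binds the matrix and inhibits ADAM17 as well as MMPs (chr10:86300372-86349506, plus strand), was at 49.6, 67.7 and 76.2 CPM in Control and 81.9, 90.4 and 107 CPM in TAF15 OE. Control 1 was again the lowest library, and the groups were separate. The log2 difference was 0.53 ± 0.17 SE with an adjusted p of 0.0850. Without Control 3 its adjusted p was 0.0479, and without both Control 1 and TAF15 OE 1 it was 0.00979. Timp4 (chr6:115241892-115252205, minus strand) was at 42.4, 36.1 and 32.8 CPM in Control and 41.9, 42.3 and 31.9 CPM in TAF15 OE. These groups overlapped (log2 0.06 ± 0.13 SE, adjusted p = 0.807).

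The summed level of 10 choroid plexus markers was 154, 4798 and 4484 CPM in Control and 1603, 4692 and 5217 CPM in TAF15 OE, in replicate order, lowest in Control 1 as for Timp2 and Timp3. The part of this in their values was not tested. Timp1, Timp3 and Timp4 each lie within a synapsin gene on the opposite strand, and whether reads were counted by strand is not given in the sources used here. Timp1 shares 0 exonic bases with Syn1, Timp3 shares 1733 of its 8144 exonic bases with Syn3, and Timp4 shares 90 of 5894 with Syn2. Smaller overlaps with a gene on the other strand hold for Adam17 (311 of 7154 exonic bases, Iah1) and Mmp11 (155 of 2778, Chchd10), and neither partner was called. Of the synapsin genes Syn1 fell (log2 -0.30 ± 0.078 SE, adjusted p = 0.0253), Syn2 fell (-0.26 ± 0.080 SE, 0.0477) and Syn3 was not called (-0.06 ± 0.15 SE, 0.832). The calls of Syn1 and Syn2 were lost on leaving out any library but TAF15 OE 1, at adjusted p of up to 0.1178 and 0.1686. With scaling on presynaptic genes the log2 values were -0.019 for Syn1 and 0.018 for Syn2, both not called.

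Among the 19 members that were not tested, the inducible MMPs of the cluster on chromosome 9 were nearly absent from Control. Their promoters are printed because AP-1 (Fos and Jun) sites close to the start are a known control element of several genes of this cluster, though not of all. Each line gives the 120 bases before a RefSeq transcription start on GRCm38.p6, plus strand, 5′ to 3′, with capitals at matches to the AP-1 motif TGANTCA. The windows are chr9:7445702-7445821 for Mmp3, chr9:7347254-7347373 for the second of the Mmp12 starts, chr9:7272394-7272513 for Mmp13 and chr9:7558309-7558428 for Mmp8.
Mmp3: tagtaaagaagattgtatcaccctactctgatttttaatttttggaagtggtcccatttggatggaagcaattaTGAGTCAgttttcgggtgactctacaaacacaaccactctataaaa
Mmp12: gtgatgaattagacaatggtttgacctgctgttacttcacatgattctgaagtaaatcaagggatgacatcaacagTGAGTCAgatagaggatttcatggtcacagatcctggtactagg
Mmp13: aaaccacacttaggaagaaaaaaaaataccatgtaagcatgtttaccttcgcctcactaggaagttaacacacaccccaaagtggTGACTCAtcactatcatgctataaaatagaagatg
Mmp8: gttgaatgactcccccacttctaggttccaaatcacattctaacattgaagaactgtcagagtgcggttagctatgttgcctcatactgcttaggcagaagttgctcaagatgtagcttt
The motif begins at -46 in Mmp3, -44 in Mmp12 and -35 in Mmp13, and these letters are not in the Mmp8 stretch. The other Mmp12 start, with the window chr9:7344277-7344396, holds none in its 120 bases.

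Mmp12, the elastase of macrophages, had 0, 1 and 1 counts in Control and 11, 4 and 8 counts in TAF15 OE. The sums of 2 and 23 counts give a ratio of 10.9, with a 95% interval of 2.69 to 95.3 that covers counting error only. Fitted without the low-count filter, its log2 value was 3.20 ± 1.01 SE (adjusted p = 0.0170). That edgeR fit gave far smaller adjusted p-values to some well-counted genes, 5.291e-130 for Taf15 against 4.971e-07 with the filter. Its p-values are therefore not on a par with those of the main fit. Mmp13, a collagenase, had 0 counts in all 3 Control libraries and 4, 2 and 3 counts in TAF15 OE. The 95% interval of the ratio of the sums, 9 to 0 counts, begins at 1.87 and covers counting error only. Its levels in TAF15 OE lie about that of 3 counts in a library, so no fold is given, and it was not called without the filter. Mmp3 (stromelysin 1) had 0 counts in Control and 0, 2 and 2 in TAF15 OE, and Mmp8 (neutrophil collagenase) had 3 counts in Control and 2 in TAF15 OE. No direction could be read for either at this depth. The other 15 untested members had at most 17 counts in any library. Of them Adamts12, at 16 counts over Control and 36 over TAF15 OE, had a ratio of 2.13 (95% interval 1.15 to 4.11). That interval covers counting error only, and those of the others included no difference. Fitted with edgeR without the filter, Adamts12 was not called (log2 1.05 ± 0.59 SE, adjusted p = 0.326).

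Of the 65 members 37 matched the RefSeq promoter table, which holds 250 bases before and 50 after each start. Searched on both strands, TGANTCA was in the windows of 5 of these 37 (Adam19, Adam1b, Mmp3, Mmp12 and Mmp13), beside 7.81% of all 32851 windows. The cyclic AMP response element TGACGTCA was in 0 of 37, beside 1.79% of windows. The GC box GGGCGG was in 23 of 37, beside 35.7% of windows. The 23 include the called Adam17, Mmp11, Mmp24, Mmp25 and Timp1, but also members not called, such as Adam10, Adam15, Mmp14, Timp2 and Timp3. A gene counts here if any of its windows holds the motif, so the counts of genes and the shares of single windows are unlike measures. A match is a description of the letters only.

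Per length and per library, in fragments normalised for transcript length and library size (FPKM), the called members lay among both high and low members of the set, from Adam11, second in the order of the 46 Control means, to Mmp25, at place 44. Timp2 was the highest member in Control at 78.8 ± 17.1 FPKM (SD, n = 3), followed by Adam11 at 53.3 ± 1.22 and Mmp17 at 50.1 ± 4.51 FPKM. The last 2 do not differ beyond their spread. Adam10 came next at 18.1 ± 0.326 FPKM, then Adam9 (14.3 ± 0.408) and Adam22 (14.0 ± 0.447), which again lay within their spread. In TAF15 OE the highest were Timp2 at 105 ± 9.20, Adam11 at 40.9 ± 2.48 and Mmp17 at 35.2 ± 5.70 FPKM. Of the members that fell, Mmp24 was at 11.6 ± 0.944 FPKM in Control and Adamts17 at 1.74 ± 0.208 FPKM. The members that rose ran in Control from 0.111 ± 0.0497 FPKM for Mmp25 to 5.67 ± 0.948 FPKM for Adamts4. That range also holds Adamts17, while Adam11, Mmp17 and Mmp24 lay above it. Mmp2 went from 1.68 ± 0.541 to 4.12 ± 0.617 FPKM and Adam17 from 2.89 ± 0.515 to 4.69 ± 0.506 FPKM.

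**Figure D3:**
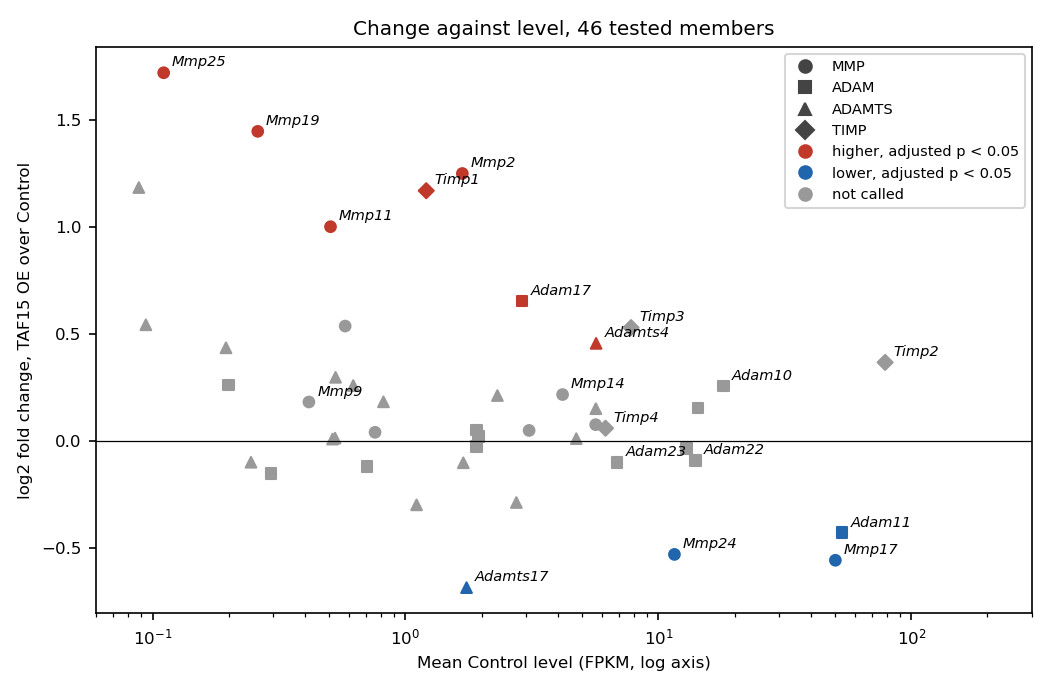
Log2 fold change of TAF15 OE over Control (y axis) against the mean Control level in FPKM (x axis, log scale) for the 46 tested members, coloured by call. Adam11, Mmp17 and Mmp24, called lower, lie at 11.6 FPKM or more, and the members called higher lie at 5.67 FPKM or less. Adamts17, also called lower, lies at 1.74 FPKM, within the range of the members called higher.

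Marker lists of other cells in the tissue are given here once for all members, and their part in the members' results was not tested. Of 10 microglial markers 9 rose (summed 357 to 401 CPM in Control, 645 to 852 CPM in TAF15 OE). Of 8 tested macrophage and monocyte markers 2 rose (38.0 to 44.9 against 55.2 to 72.7 CPM), and of 7 T and natural killer cell markers 6 rose (7.06 to 8.29 against 15.5 to 37.0 CPM). Of 7 B and plasma cell markers 4 rose (77.2 to 123.5 against 163 to 251 CPM), and of 10 endothelial markers 4 rose (233 to 293 against 313 to 399 CPM). Of 8 ependymal markers 1 rose (38.6 to 63.4 against 71.2 to 89.9 CPM), and of 10 interneuron markers 2 fell (821 to 881 against 720 to 855 CPM). Of 9 pericyte and smooth muscle markers 6 rose (208 to 253 against 310 to 368 CPM). Of 9 fibroblast markers, a cell type known to express Mmp2, 3 rose (196 to 496 CPM in Control, lowest in Control 1, and 388 to 646 CPM in TAF15 OE). No oligodendrocyte precursor or choroid plexus marker was called. In each single library the median member lay between -0.022 and 0.032 from the Control mean in Control and at 0.161, 0.069 and 0.125 in TAF15 OE 1, 2 and 3, on the log2(CPM + 1) scale.

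Partners, regulators and substrates of the proteases were followed as a list of 66 genes, of which 62 were tested. Of these 24 rose and 3 fell (43.5% called, beside 15.3% of all genes). The list was chosen with earlier results of these data known, so its share is a description and no independent result. The part of the cell type markers in it was not tested. Of 8 cofactors of ADAM10 and ADAM17, 4 rose and 1 fell. Frmd8, which stabilises the iRhom and ADAM17 complex, rose from 27.0 ± 1.49 to 42.1 ± 3.81 CPM (log2 0.64 ± 0.096 SE, adjusted p = 0.00217). Tspan5, a tetraspanin that escorts ADAM10, fell (log2 -0.42 ± 0.081 SE, adjusted p = 0.00627, and 0.130 with scaling on presynaptic genes). Tspan15, another escort of ADAM10, rose (log2 0.51 ± 0.10 SE, adjusted p = 0.00869). Tspan14 rose too (log2 0.39, adjusted p = 0.0201), a call lost without Control 2 (0.0665) or TAF15 OE 2 (0.0913).

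Of 16 activators and inhibitors 7 rose and none fell. Serpine2, an inhibitor of thrombin and plasminogen activators, went from 136 ± 5.24 to 214 ± 8.41 CPM (log2 0.65 ± 0.067 SE, adjusted p = 2.669e-04). A2m, the broad protease trap α2-macroglobulin, went from 13.04 ± 4.73 to 52.2 ± 8.87 CPM (log2 2.00 ± 0.30 SE, adjusted p = 0.0116). Adamtsl3 and Adamtsl4, ADAMTS-like proteins without a protease domain, rose by log2 1.64 (adjusted p = 0.00168) and 0.93 (0.00211). Of 22 tested substrates shed from the membrane 9 rose and 1 fell. The risers include Trem2 of microglia (log2 1.51, adjusted p = 3.251e-05), the receptor kinase Axl (0.87, 1.493e-04), the TNF receptor Tnfrsf1a (1.14, 5.397e-04) and the hyaluronan receptor Cd44 (2.50, 7.418e-04). The 1 that fell was the chemokine Cx3cl1, made by neurons (log2 -0.54, adjusted p = 9.864e-04), named after its value was seen. Of 12 matrix substrates 3 rose. The lectican Vcan, a substrate of Adamts4, rose from 22.1 ± 0.712 to 30.9 ± 0.398 CPM (log2 0.49 ± 0.088 SE, adjusted p = 0.00487). The calls of Sparcl1 and Hapln1 (log2 0.28 and 0.33, adjusted p = 0.0285 and 0.0306) were lost without 5 and 6 of the 6 libraries left out singly, at adjusted p of up to 0.1708 and 0.1261.

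With each library left out in turn, 5 of the 11 called members kept their call throughout: Mmp2, Mmp19, Mmp24, Adam11 and Adam17. The number of members called higher was then 3 to 6 and the number called lower 2 to 4. All 11 kept their direction in every alternative that gave them a value, 18 at most. In the authors' deposited table, 6 members were higher and 4 lower at an adjusted p below 0.05, and 2 of them, Mmp2 and Mmp19, were marked as significant. That table gave an adjusted p of 0.0794 for Timp1, 0.0740 for Mmp11 and 0.0781 for Mmp25, and of 0.0349 for Timp2 and 0.00472 for Timp3. The order of these 5 genes about the threshold was thus the reverse of the one above.

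**Figure D4:**
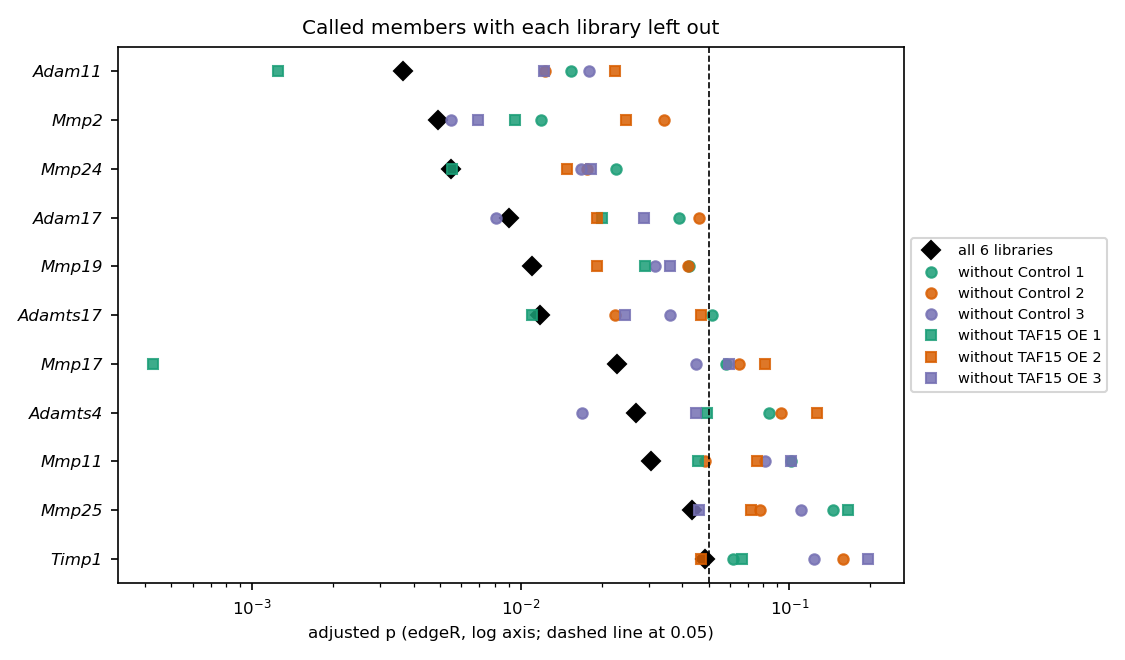
Adjusted p from the edgeR test (x axis, log scale, dashed line at 0.05) of the 11 called members with all 6 libraries and with each library left out. Mmp2, Mmp19, Mmp24, Adam11 and Adam17 stay below 0.05 in all of them, and Timp1 and Mmp25 pass it on leaving out most libraries, up to 0.1963 and 0.166.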

How the data were processed

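Hippocampal RNA from 6 mice was extracted with Trizol and made into libraries with a TruSeq RNA kit for a NovaSeq, per the labels' protocols and the series' design text. CASAVA, Bowtie2 2.2.3, HISAT2 2.1.0, TopHat2 and the build GRCm38 are named in the submitters' processing notes. No source used here gives the task of each tool, the counter, the annotation or the strand setting. The authors deposited a table of raw read counts per gene, a table of FPKM values, and a comparison table with normalised signal, a fold ratio, its log2 value and p-values.

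Members were taken from the deposited comparison table and joined by gene identifier to the counts. The members and all gene lists were chosen with earlier results of these data known. Every gene was fitted with edgeR 4.0.16 in R 4.3.3 (filterByExpr with a minimum count of 10, trimmed mean scaling, robust quasi-likelihood F-test, 3 mice against 3, no covariates), with Benjamini-Hochberg adjustment over all genes tested. CPM values use the scaled library sizes, and FPKM values served for levels across genes and for limma 3.58.1 alternatives. DESeq2 1.42.0, limma-voom, other scalings and filters, the replicate block and leaving out libraries were the other alternatives. The fit was also run on simulated counts with planted group changes. Those counts held no shift of a single library, so that run does not bear on Control 1 or TAF15 OE 1. Full values are given for called members and for those fixed by name (Mmp2, Mmp9, Mmp14, Mmp24, Adam10, Adam17, Adam11, Adam22, Adam23, Adamts1, Adamts4, Adamts5 and the 4 TIMPs), and up to 4 genes of each related list with the smallest p. Libraries differed by more than counting noise (smallest chi-square per degree of freedom 5.15), and each came from its own mouse. Intervals and floors cover counting error only. Zinc sites were read from GENCODE M21 transcripts and promoters from RefSeq. Figures were drawn with matplotlib 3.10.9, and proteins aligned with Biopython 1.88.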

Additional observations from a re-analysis of the deposited data

How the results depend on the processing

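With scaling on 35 presynaptic genes, 18 members were called higher and 1 lower, with a median of 0.39. Over all genes 6657 were then higher and 139 lower, and of the related list 42 and 1, and the log2 values of Adam22 (0.191), Adam23 (0.182), Syn2 (0.018) and Syn3 (0.214) were reversed. Without the low-count filter 12 members were higher and 4 lower of 65 (median 0.15). Of 30821 genes 2008 were then higher and 1568 lower, and of the related list 26 and 6. The members' median was 0.15 by DESeq2 and 0.16 with total counts. On log2(FPKM + 1) with a mean of at least 0.5 FPKM, 3 members were higher and 3 lower (median 0.075), with 1102 and 449 genes. With a pseudocount of 0.1, 3 members were again higher and 3 lower, with 1157 and 473 genes. On log2(FPKM + 1) without a filter, 1 member was higher and 1 lower (median 0.051), 496 and 173 genes, and 12 and 1 related genes. Without both Control 1 and TAF15 OE 1, 4 members were higher (median 0.035). Of all genes called in that fit 54.1% were higher, and the median over all genes was 0.0060.

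Leaving out each library gave 3 to 6 members higher and 2 to 4 lower, 877 to 1293 and 365 to 1208 genes, 16 to 21 and 3 to 6 related genes, and medians of 0.1075 to 0.1658. Signs were reversed for Adamts1 without Control 1 (-0.036) or TAF15 OE 3 (-0.086), Timp4 without Control 3 (-0.024), TAF15 OE 1 (-0.024) or TAF15 OE 2 (-0.021), Mmp14 without TAF15 OE 1 (-0.011) or both first libraries (-0.017), Mmp9 without TAF15 OE 2 (-0.25) and Syn3 without TAF15 OE 3 (0.079). With other libraries left out the values reached 0.3681 for Adamts1, 0.174 for Timp4, 0.3808 for Mmp14, 0.3967 for Mmp9 and -0.2008 for Syn3. The cause of these shifts was not tested.

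Same-numbered libraries correlated at 0.126, 0.0776 and 0.0871 in their deviations, values that do not settle whether the numbers pair the mice. The labels name no pairing, so the block was used as an alternative only. With the replicate block 10 members were higher and 4 lower (Adam10, Timp2 and Timp3 in addition). Over all genes 1904 were then higher and 1387 lower, and of the related list 28 and 6. The 19 members that missed the low-count filter rest on few reads.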
